A study of Mus musculus with 91 samples.

Results

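The caudal lateral epiblast of the mouse embryo held epiblast-like cells with and without transcripts of Cdx4, a caudal homeobox gene, and these are compared here gene by gene. Epiblast-like cells were those in which Nkx1-2, a homeobox gene of the caudal epiblast, exceeded Aldh1a2, which encodes a retinoic acid-producing enzyme of young paraxial mesoderm, in CPM (each count divided by the cell's total and multiplied by 1000000). This rule took 43 of the 91 cells sequenced, and the other 48 are called mesoderm-like. Of the 43, 19 had at least 1 Cdx4 read and are called Cdx4-positive, and 24 had none and are called Cdx4-negative. The cells were thus chosen by their reads of Cdx4, Nkx1-2 and Aldh1a2, and all other genes were measured in the same cells, so that every comparison of the groups is a description.

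All cells came from wild type embryos of outbred MF1 mice at the early headfold stage, around embryonic day 8.0. Tissue at the sides of the node and of the front of the primitive streak was dissected, most of the mesoderm under it was removed, and the pieces were pooled before single cells were sorted into 1 plate for Smart-seq2, a full-length RNA-seq method. No cell is tied to an embryo. The 91 cells are therefore 1 sample without replicates, no test was made and no p-value is given, and an SD describes the spread between cells of the pool.

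Cdx4 belongs to a family of 3 homeobox transcription factors with Cdx1 and Cdx2, relatives of the fly gene caudal. In the posterior embryo these factors act downstream of Wnt and Fgf signals, activate Hox genes of the trunk and are needed for elongation of the body axis. Hox genes lie in 4 clusters and are switched on in the order in which they lie along them, from paralogue group 1 towards group 13, so that genes of higher group numbers are active later and more caudally.

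Cells carried 709866 to 4439571 counts (median 2507671). Depth differed little between the groups, with medians of 2303884 counts in Cdx4-positive and 2578843 in Cdx4-negative cells, ranges of 1260653 to 3018574 and 1333149 to 3927737, and medians of 8291 and 8160 genes with a read. Mitochondrial counts made up a median of 3.83% and 3.58%. Positive cells were found in 7 of the 8 rows of the plate: row B held 0 positive and 3 negative cells and row F held 4 and 1. The part of plate position in the results was not tested.

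Of the marker genes, Nkx1-2, Cdx4 and Aldh1a2 entered the rule and their values only describe it. Nkx1-2 ran from 598 to 2167 CPM (median 918) in positive and from 356 to 1514 CPM (median 887) in negative cells. Of the epiblast markers that the rule did not use, Cdh1, Epcam, Pou5f1, Wnt8a and Utf1 were read in 50% or more of either group, and Cldn6, a tight junction gene, in 5 of 19 positive and 12 of 24 negative cells. Of 8 mesoderm markers, 2 reached that share in each group. These were Fn1, the fibronectin gene, and Lef1, whose product takes Wnt signals to the DNA. In mesoderm-like cells 7 of the 8 mesoderm markers were read in at least 50% of the cells, but so were 4 of the 8 epiblast markers. The epiblast markers are thus not all particular to epiblast-like cells. The nearest cell to the limit of the rule was the negative cell B10 (wells name the cells), with 688 CPM of Nkx1-2 and 570 CPM of Aldh1a2, while no other epiblast-like cell exceeded 2.90 CPM of Aldh1a2. The nearest cell on the other side was G3, with 164 and 301 CPM.

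Cdx4 reads were either plentiful or absent in epiblast-like cells. Positive cells held 2 to 956 reads of Cdx4 (median 304), or 1.59 to 383 CPM (median 141). The lowest was cell A1 with 2 reads and the next was cell D12 with 45, so that 18 of the 19 lay at least 45 reads above the 24 cells without any. Summed over cells, Cdx4 (GRCm38 chrX:103321398-103330592, no exon shared with another gene) had 7421 reads in the positive group. The negative group had 0 because the rule chose it so. The intervals and upper limits on shares of cells have 95% confidence and cover counting error only. The share of epiblast-like cells with a Cdx4 read was 44.2% (exact Clopper-Pearson interval 29.1 to 60.1%), and at a minimum of 5 reads it was 41.9% (27.01 to 57.9%).

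Mesoderm-like cells had fewer and smaller Cdx4 values. A read was found in 9 of 48 cells (18.8%, interval 8.95 to 32.6%) and at least 5 reads in 4 (8.33%, 2.32 to 19.98%). Of the 9, 7 held 1 to 6 reads, cell B5 held 87 and cell G1 held 213. As a rough measure of stray reads, 15 genes of other adult organs had a read in 1.11% of gene and cell pairs in mesoderm-like cells. In positive and negative epiblast-like cells the shares were 2.81% and 2.22%. Of the 15, Mbp had a read in at least 10 epiblast-like cells, so that these 2 shares do not measure stray reads alone. In mesoderm-like cells 1 to 4 such reads were found in 0.694% of the pairs. The plot of Cdx4 reads per cell shows this gap between cells with and without the transcript.

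**Figure D1:**
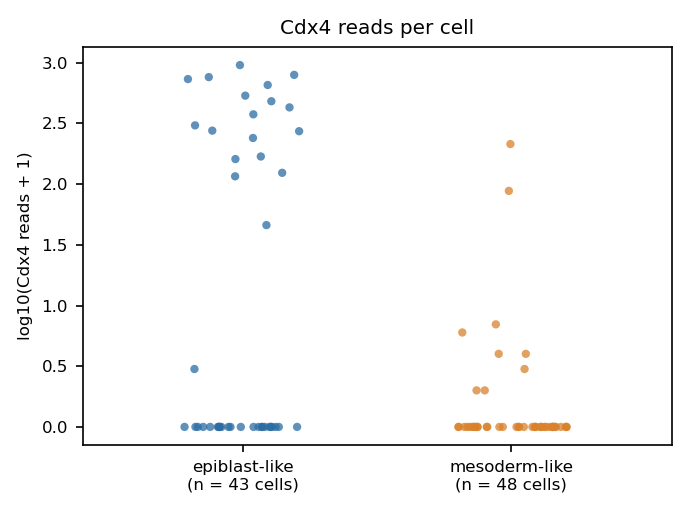
Each point is 1 cell, placed by log10(Cdx4 reads + 1) on the vertical axis, in 43 epiblast-like (blue) and 48 mesoderm-like cells (orange). Epiblast-like cells lie at 0 reads (24 cells), at 2 reads (1 cell) or between 45 and 956 reads (18 cells), while 7 of the 9 mesoderm-like cells with a read lie between 1 and 6.

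The other Cdx genes were not restricted to Cdx4-positive cells. Cdx1 had reads in all 43 cells, from 113 to 2645 CPM (median 1666) in positive and from 282 to 2070 CPM (median 877) in negative cells. The groups overlapped over most of this range, with 4 positive cells above the highest negative one. The mean was 1504 ± 662 CPM (SD, n = 19 cells) against 988 ± 543 CPM (SD, n = 24 cells), a log2 ratio of 0.61 that stayed below the 2-fold rule. Folds are ratios of mean CPM after 1 CPM was added to each, and a gene is called when it differs at least 2-fold, a rule of size and not a test.

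Cdx2, which is also active in trophectoderm, differed more and at lower levels. It had reads in 16 of 19 positive cells, with 0 to 206 CPM (median 102.5), and in 19 of 24 negative cells, with 0 to 117 CPM (median 34.8). The log2 ratio was 1.09, past the 2-fold rule, and 0.97 without the highest positive cell F11. Corrected for exon length, the means in positive cells were 859 ± 378 for Cdx1, 82.9 ± 59.96 for Cdx4 and 37.5 ± 30.6 for Cdx2 in RPKM (CPM per kilobase of exon; SD, n = 19 cells). Per length Cdx1 was thus the most abundant member there, whereas the levels of Cdx4 and Cdx2 overlapped between cells. All 3 genes were read together in 16 of the 19 cells. Within the positive cells the rank correlation of the Cdx4 level with Cdx1 was 0.27 and with the total counts 0.09, over 19 cells of 1 plate. Among called genes compared this way, it had the sign of the group difference for Cdx2 (0.22), Hoxb7 (0.45), Hoxb8 (0.18), Id2 (-0.14) and Notch1 (-0.24). The sign was opposite for Sox2 (-0.18) and Id1 (0.28).

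Across 11290 genes with a read in at least 10 of the 43 cells, 572 (5.07%, Cdx4 among them) were at least 2-fold higher and 515 (4.56%) at least 2-fold lower in Cdx4-positive cells. The median log2 ratio was 0.00 with an SD over genes of 0.61, so that counts on the members of any list have to be read against about 5% called in either direction. Asking that the fold hold also when the highest cell of the higher group is left out, which is called firm below, kept 257 higher (2.28%) and 233 lower genes (2.06%). By the difference of mean log2(CPM + 1), which weights the share of cells with reads, the split moved to 998 higher and 443 lower, or 69.3% higher in place of 52.6%.

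Among lists with at least 3 tested genes, Hox genes had the largest median difference when 1 CPM was added to each mean. With 10 CPM added, the Hox median was 0.37, below the 0.43 of Fgf signalling targets and ligands. The Hox difference lay in how many of these genes were detected in a cell. Of 39 Hox genes 19 had a read in any epiblast-like cell, and each of the other 20 had none in 43 cells, which allows a share of up to 8.22%. Of the 11 that passed the filter on 10 cells, 4 were higher in Cdx4-positive cells, all of them firmly, 0 were lower and 7 were neither, with a median log2 ratio of 0.89. The 4 were Hoxb3, Hoxb7, Hoxb8 and Hoxc4. The filter took genes with reads in few cells out, so that the counts below are given over every Hox gene with a read.

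The 8 detected genes of paralogue groups 5 to 13 each had reads in a larger share of the positive than of the negative cells, while groups 1 to 4 were mixed, with 7 of 11 larger in positive, 2 larger in negative and 2 equal. Over all genes tested the share was larger in positive cells for 46.3% and larger in negative cells for 35.99%, and over genes with a read in 1 to 9 cells for 52.1% and 47.9%. At the 3' end of its cluster the early gene Hoxb1 was read in all 43 cells. It averaged 237 ± 127 CPM in positive and 171 ± 113 CPM in negative cells (SD), a log2 ratio of 0.47 that did not pass the 2-fold rule.

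The trunk gene Hoxb7 (chr11:96286623-96290162) was read in 11 of 19 positive cells (57.9%, interval 33.5 to 79.7%) and 5 of 24 negative cells (20.8%, 7.13 to 42.1%). Its level ran from 0 to 145 CPM (median 1.49) in positive and from 0 to 67.2 CPM (median 0) in negative cells, with 4 positive cells above every negative one. The log2 ratio was 2.02, and 1.66 without the highest positive cell. Hoxb8 (chr11:96281905-96285315), its neighbour in the cluster, was read in 9 positive (47.4%, 24.4 to 71.1%) and 4 negative cells (16.7%, 4.74 to 37.4%), at 0 to 48.4 against 0 to 10.7 CPM. The median was 0 in both groups, and the log2 ratio was 1.85. Both genes were together in 5 positive and 2 negative cells. In mesoderm-like cells Hoxb7 had a read in 1 of 48 cells and Hoxb8 in none, which allows a share of up to 7.40%.

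Hoxc4 (chr15:103018934-103036852), a gene of the cervical and upper trunk region, was read in 10 positive and 4 negative cells, with a log2 ratio of 1.51, although the highest single cell (41.6 CPM) was negative. Hoxb3 was read in 8 and 3 cells and reached only 12.8 CPM, and it shares exon sequence with Hoxb3os on the other strand, whose reads cannot be told apart because the strand setting of the counting is not known. Hoxb4 lay just below the rule, at 36.7 ± 34.3 against 18.1 ± 22.1 CPM (SD) with reads in 18 of 19 and 16 of 24 cells and a log2 ratio of 0.98. Hoxd1 was left out by the filter with 6 positive cells and 1 negative cell, and Hoxb9, the most 5' gene detected in its cluster, was read in 5 and 2.

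**Figure D2:**
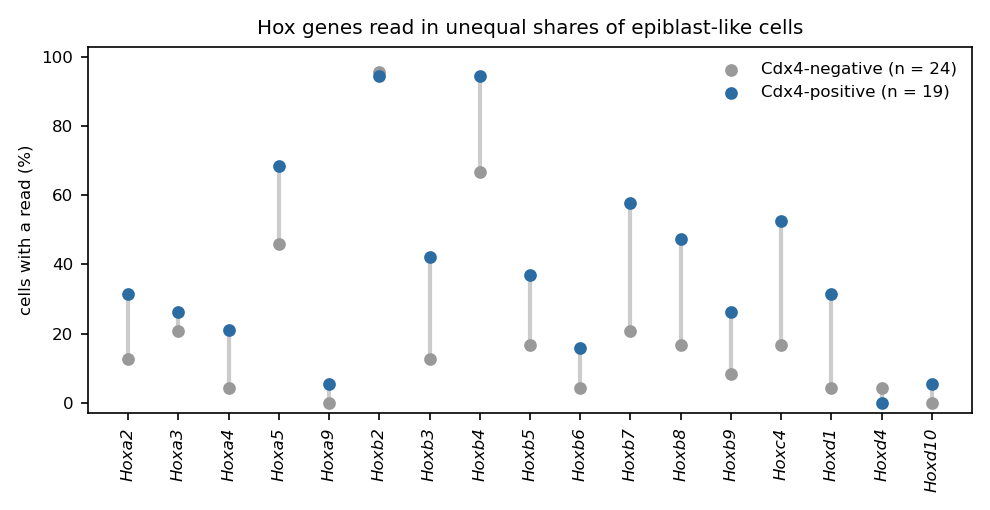
For the 17 Hox genes read in unequal shares of the groups, points give the percentage of 19 Cdx4-positive (blue) and 24 Cdx4-negative cells (grey) with a read, joined by a grey line. The blue point lies above the grey one for 15 genes and below it for Hoxb2 and Hoxd4.

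Counted per cell, the detected Hox repertoire was larger in Cdx4-positive cells. A positive cell had reads in 3 to 14 Hox genes (median 8) and a negative cell in 3 to 9 (median 5). For groups 5 to 13 alone, at least 1 gene was read in 17 of 19 positive cells (89.5%, interval 66.9 to 98.7%) and in 14 of 24 negative cells (58.3%, 36.6 to 77.9%). At least 2 were read in 15 (78.95%, 54.4 to 93.9%) and 8 cells (33.3%, 15.6 to 55.3%), and at least 3 in 10 and 4 cells. The groups overlapped, as 2 positive cells, A1 and G9, had none of these genes and 1 negative cell had 4. The summed level of the 27 genes was 0 to 213 CPM (median 45.2) in positive and 0 to 171 CPM (median 0.57) in negative cells. The summed level of all 39 Hox genes had medians of 1138 and 1185 CPM, without this order.

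**Figure D3:**
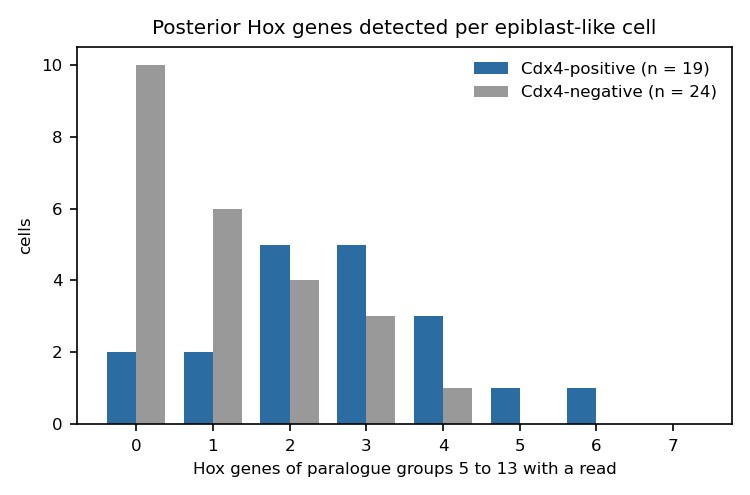
Bars give the number of cells (vertical axis) with reads in a given number of Hox genes of paralogue groups 5 to 13 (horizontal axis), for 19 Cdx4-positive (blue) and 24 Cdx4-negative epiblast-like cells (grey). Negative cells pile up at 0 genes (10 cells) and positive cells at 2 and 3 genes (5 cells each).

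Cdx factors are known to bind DNA around the letters TTTATG, and these were looked for, on both strands (CATAAA on the other), in RefSeq promoters of GRCm38.p6, from 250 bases before to 50 after each gene's start. Hoxb8 is shown because it was the one promoter with the motif among those of the 6 tested Hox genes that matched the table, and it held 2, which overlap no other match. Capitals mark the motif, and the windows are chr11:96281736-96281765 and chr11:96281750-96281779 on the strand of the gene.
Hoxb8, first motif: atgctaacagctTTTATGcgctgcagcata
Hoxb8, second motif: tatgcgctgcagCATAAAcaacaacagact
The share of promoters with the motif was similar for higher and lower genes. It was present in 6.11% of 573 promoters of higher genes, 6.54% of 474 promoters of lower genes, 7.87% of 254 promoters of firmly higher genes and 5.97% of 9251 promoters of all genes tested that matched (7275 of 11290), and in 11.9% of all 32851 promoters in the table. A match of these letters is a description and not a bound site.

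Genes of axial progenitors, the cells that feed neural tube and paraxial mesoderm, leaned towards Cdx4-positive cells by mostly small differences. Of 17 tested, 3 (Sox2, Wnt5b and Cdx2) were higher, 0 were lower and 14 neither. In all 15 lay above 0, against 50.2% of all genes tested, and the median log2 ratio was 0.40. Among the 15 were Nkx1-2 (0.20), a gene of the rule, and Cdx1 and Cdx2, which are described above. Sox2 (chr3:34650405-34652461), a gene of neural and pluripotent cells that encodes a transcription factor, ran from 0 to 133 CPM (median 36.4) in positive and from 0 to 52.7 CPM (median 0.37) in negative cells. Thus 5 positive cells lay above every negative one, and the log2 ratio of 1.997 was 1.76 without the highest. The difference was one of level more than of detection: a read was present in 16 of 19 and 17 of 24 cells, and at least 5 reads in 13 and 8. Sox2 was the only neural gene of 4 tested that was called, and the median of these was 0.30.

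T, the primitive streak gene, was spread widely in both groups, at 256 ± 377 CPM in positive and 205 ± 364 CPM in negative cells (SD), with a log2 ratio of 0.32. That ratio depended on the measure: it was -0.15 without the highest positive cell F3 and 1.78 by the difference of mean log2(CPM + 1). At least 5 T reads were present in 15 of 19 positive and 13 of 24 negative cells. T and Sox2 were read together in 12 of 19 positive (63.2%, interval 38.4 to 83.7%) and 13 of 24 negative cells (54.2%, 32.8 to 74.5%), and with at least 5 reads of each in 9 and 7. Among positive cells the balance differed from cell to cell: cell C8 had 539 T and 269 Sox2 reads, whereas cell C10 had 2263 T reads, 271 of Tbx6 and none of Sox2. Cells A1, A8, G5 and E9 had no T read but 37 to 112 Sox2 reads. A Cdx4 read was thus found with T alone, with Sox2 alone and with both.

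Wnt5b, a Wnt ligand gene, averaged 73.1 ± 77.9 CPM with reads in 16 of 19 positive cells and 32.1 ± 65.6 CPM with reads in 10 of 24 negative cells, and the groups overlapped up to 239 CPM. Its log2 ratio was 1.17, and 0.92 without the highest positive cell F5. Other progenitor genes stayed below the rule, with log2 ratios of 0.33 for Wnt3a and Wnt8a, 0.79 for Fgf8, 0.22 for Sp8, a zinc finger gene of the tail region, and -0.05 for Cyp26a1, the gene of a retinoic acid-degrading enzyme.

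**Figure D4:**
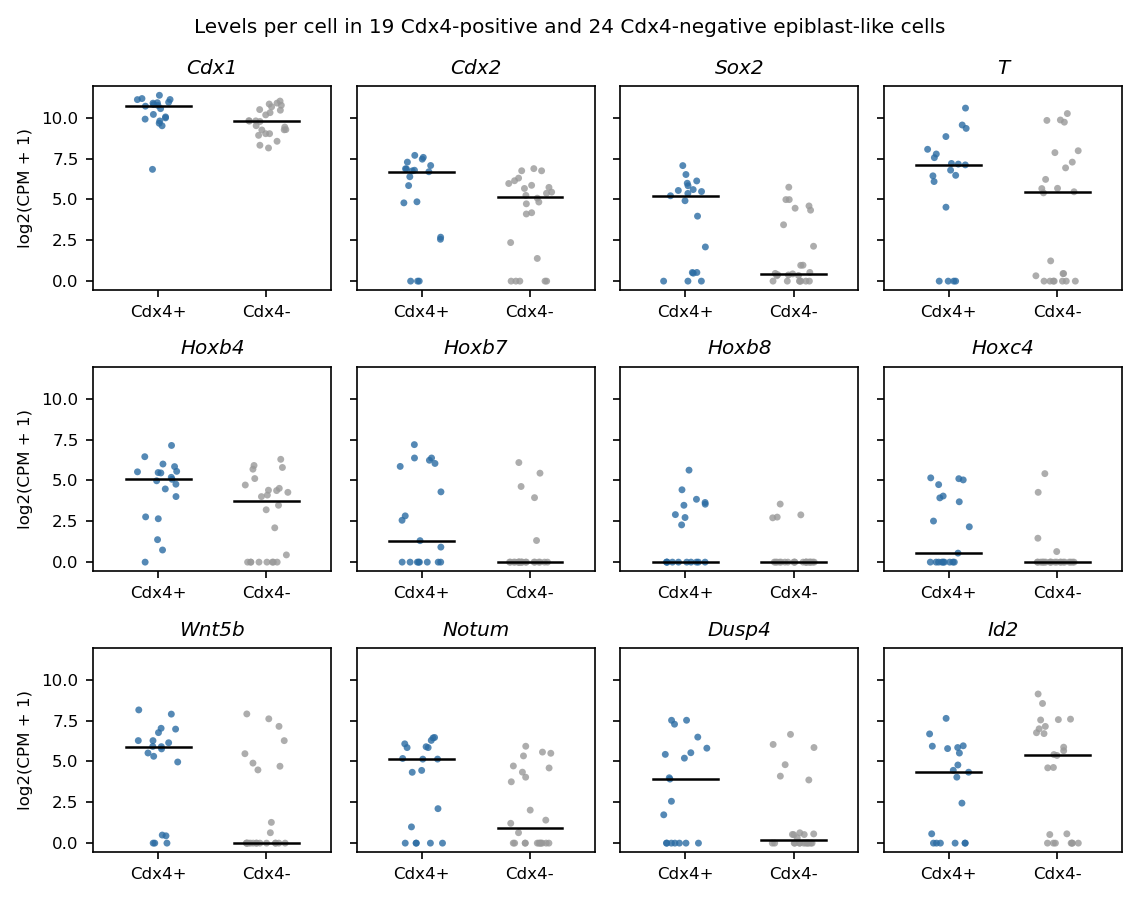
Each point is 1 cell, with log2(CPM + 1) on the vertical axis, for Cdx4-positive (Cdx4+, 19 cells, blue) and Cdx4-negative epiblast-like cells (Cdx4-, 24 cells, grey), and the black line is the median. The groups overlap for all 12 genes, with higher medians in positive cells for 10 of them, a lower median for Id2 and medians of 0 in both groups for Hoxb8.

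Wnt feedback genes and Fgf targets had 1 higher member each. Of 10 Wnt targets tested, Notum, which encodes a secreted Wnt inhibitor, was higher (log2 ratio 1.39 and 1.26 without the highest cell), at 0 to 87.3 CPM (median 34.2) against 0 to 59.9 CPM (median 0.94). Its exons overlap Notumos and Myadml2os on the other strand. Axin2, the common readout of Wnt activity, had a log2 ratio of -0.37, and the list's median was 0.21. Of 15 Fgf genes, Dusp4, a phosphatase gene induced by MAP kinase signals, was higher at 43.2 ± 62.8 against 11.7 ± 25.7 CPM (SD), a log2 ratio of 1.80. The related Dusp6 (0.66) and Spry2 (0.44) were neither, and the median of the list was 0.52.

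Bmp and Id genes moved in both directions, with 1 of 6 higher and 2 lower and a median of 0.03. Id2, an inhibitor of basic helix-loop-helix factors, ran from 0 to 197 CPM (median 19.2) in positive and from 0 to 557 CPM (median 40.95) in negative cells. It was firmly lower, with a log2 ratio of -1.37 and with 2 negative cells above every positive one. The related Id1 was lower (-1.57, read in 3 and 7 cells) and Id3, read in all 19 positive and 23 negative cells, was level (0.07). Msx1, a homeobox target of Bmp signals, was higher (2.03) with reads in 8 and 6 cells. Called list members read in under 50% of the cells of the higher group, Msx1 and Id1 among them, were named after their values were seen.

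Genes of mesoderm entry were level as a list, with 3 of 10 tested higher, 1 lower and a median of 0.02, and the calls leaned on single cells. Dll1, a Notch ligand gene of presomitic mesoderm, had a log2 ratio of 1.21 that turned to -1.28 without cell F3, which alone held 469 CPM, and rose to 3.16 when cells were asked to have at least 10 times more Nkx1-2 than Aldh1a2 + 1 CPM, which drops the negative cell B10. Rspo3, a Wnt agonist gene, dropped from 1.18 to 0.37 without cell C10, and the lower Aldh1a2 from -4.40 to -0.28 without cell B10. Hes7, a cyclic gene of the segmentation clock, kept a log2 ratio of 1.49 without its highest cell, with reads in 9 of 19 and 8 of 24 cells. Its exons overlap 9130213A22Rik on the other strand. Tbx6, the paraxial mesoderm selector, was level at -0.13 with reads in 7 cells of each group. Of 10 Notch genes 2 (Dll1 and Hes7) were higher and 2 (Notch1 at -2.14 and the target Hey1 at -1.64) lower, Notch1 falling to -0.92 without its highest negative cell E4, and the median was -0.19.

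Retinoic acid genes had 2 of 13 higher (Dhrs3 and Rxrb), 1 lower and a median of -0.22. The lower one was Aldh1a2, a gene of the rule whose call rests on cell B10. Dhrs3, which encodes a retinaldehyde reductase, was at 1.04, and at 0.47 without cell C10. Of 8 Nodal and Tgf-beta genes 1 was lower, the signal transducer Smad3 (-1.07, and -0.83 without its highest negative cell), and the median of the list was -0.01.

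Lists of cell state showed few calls. Of 15 pluripotency and early epiblast genes none was called (median 0.10), and Pou5f1 (0.36) and Nanog (-0.91) were read in every cell, although reads of the pseudogenes of Nanog may be counted with it. Of 15 epithelial genes 1 was higher (Cldn3) and 2 were lower (Cldn6 and Ocln), with a median of 0.33 and with Cdh1 at 0.33 and Epcam at -0.26. Of 9 mesenchymal genes 1 was higher (Mmp2, median of the list 0.17). Of 29 G1/S genes 0 were called (median -0.06), and of 34 G2/M genes 0 were called although 26 lay above 0 (median 0.24). Of 20 glycolysis and hypoxia genes 2 were lower (Pfkp and Egln3, median 0.15), of 6 immediate early genes 1 was lower (Egr1, median -0.09), of 8 p53 targets 1 was higher (Sesn2, median -0.10) and of 13 mitochondrial transcripts 0 were called (median 0.03). Of the calls named in these lists, those of Pfkp and Sesn2 held without the highest cell and the other 6 did not. The plot of list members by log2 ratio shows most lists centred near 0 and the Hox list to the right.

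**Figure D5:**
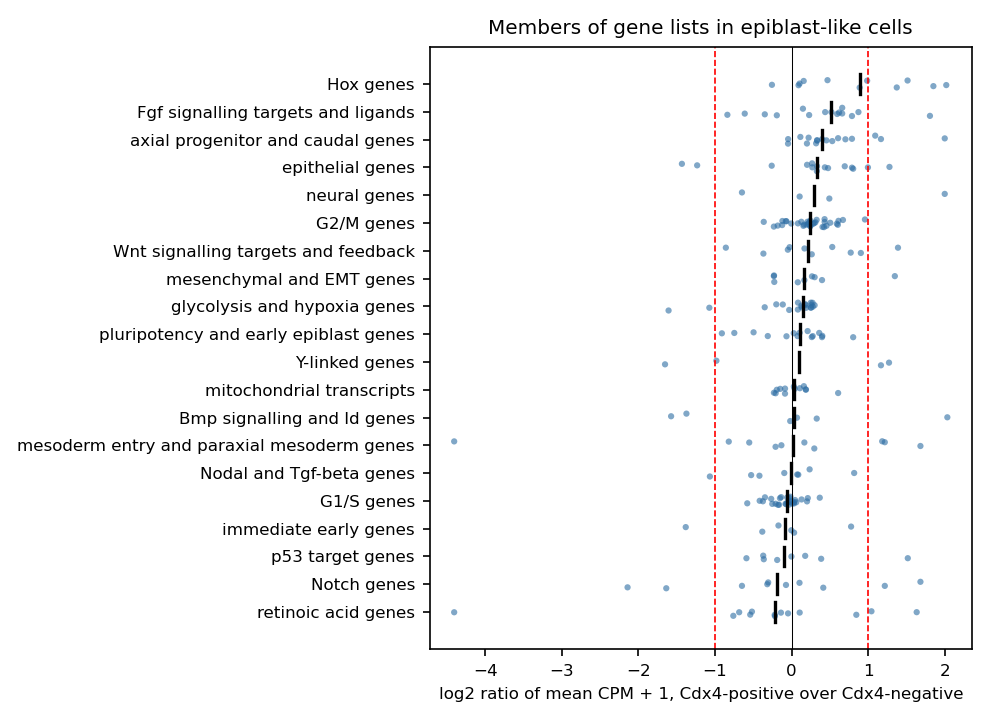
Each point is 1 tested gene of a list, placed by its log2 ratio of mean CPM + 1 in Cdx4-positive over Cdx4-negative epiblast-like cells, the short black bar is the median of the list, and red dashed lines mark a 2-fold difference. The Hox list has the largest median (0.89) and the retinoic acid list the smallest (-0.22), and the point near -4.40 in 2 lists is Aldh1a2.

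Markers of node, endoderm and blood were scarce, with a median summed level of 0 CPM in both groups, whereas 3 other lists were read more often. Lateral and extraembryonic mesoderm markers had medians of 47.75 CPM in positive and 0 CPM in negative cells. The medians were 2.86 and 31.1 CPM for surface ectoderm and 55.3 and 65.9 CPM for germ cell markers. Of 9 node and notochord markers 7 were at 0 in all 43 cells, including Foxa2 and Shh, with a summed level of at most 218 CPM in positive cells, where 2 cells had Nog reads, and 7.34 CPM in negative cells. Of 10 endoderm markers 7 were at 0, and the summed level reached 63.5 and 4.88 CPM. Of 10 lateral and extraembryonic mesoderm markers 6 were at 0, the summed level reached 215 and 88.1 CPM, and the 1 tested, Pmp22, a gene active in many tissues, was higher. Of 10 blood and endothelial markers 5 were at 0 (summed at most 20.5 and 40.3 CPM), of 10 surface ectoderm markers 2 (at most 113 and 77.3 CPM) and of 8 germ cell markers 4 (at most 213 and 321 CPM), where Ifitm3 alone of 3 tested was called (1.10, and 0.68 without the highest cell).

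Over all genes tested the largest differences were in genes of varied function. Of the 12 highest firm calls, Trim23, which encodes a ubiquitin ligase, came first with 80.7 ± 93.4 CPM and reads in 14 of 19 positive cells against 8.01 ± 23.9 CPM and reads in 11 of 24 negative cells, a log2 ratio of 3.18. Cic, a repressor gene relieved by MAP kinase signals, was read in 11 positive and 2 negative cells (2.92). The others were Zc3h10 (2.95), Cln6 (2.91), Ptpn9 (2.65), Pmp22 (2.63), the splicing regulator gene Ptbp3 (2.61), Palm (2.48), the non-coding Gm37696 (2.46), Zfp358 (2.41), Wfikkn1 (2.33) and Etnk2 (2.30). Each of them had reads in at least 2 negative cells. Zc3h10, Cln6, Ptpn9, Ptbp3 and Gm37696 overlap exons on the other strand.

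Of the 12 lowest firm calls, Kif21a, which encodes a kinesin motor, was read in 4 of 19 positive and 17 of 24 negative cells, at 1.26 ± 3.36 against 34.7 ± 57.6 CPM (SD), a log2 ratio of -3.98. In 9 negative cells it exceeded every positive cell. Echdc1, an enzyme gene of acyl-CoA repair, had no read in 19 positive cells. It was read in 12 negative cells at up to 60.3 CPM. No upper limit on the positive share is given, because it passed the filter through negative cells alone and was picked for its large difference. The nuclear transport gene Ipo13 was read in 5 and 17 cells (-2.98). The others were Gm37760 (-4.13), Zfp160 (-2.88), Tapbpl (-2.52), Map3k11 (-2.42), the apoptotic nuclease gene Dffb (-2.39), Cnn2 (-2.36), Wdr31 (-2.34), Zcchc4 (-2.28) and the X-linked kinase gene Wnk3 (-2.23). Echdc1, Map3k11 and Wnk3 overlap exons on the other strand.

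By the share of cells with a read, the 8 genes with the largest excess in positive cells were Cdkn1b, Palm, Cic, Kif5c, Cep72, Tpd52l1, Pik3c2a and Ap3b1. Cdkn1b, the cell cycle inhibitor p27, was read in 15 positive and 7 negative cells yet differed less than 2-fold (0.81). Kif5c, a neuronal kinesin gene, was read in 17 and 10 cells (1.35) and Ap3b1, a vesicle coat gene, in 16 and 9 (2.11). The 8 with the largest deficit were Echdc1, Kif21a, Zfp68, Dynlt1a, Sestd1, Olfr1167, Ipo13 and Fastkd5, of which Olfr1167 (1 and 12 cells, at most 2.14 CPM) and Fastkd5 (7 and 19 cells, -0.87) were not called.

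Sex-linked reads differed between the groups. At least 5 reads of the Y-linked genes Ddx3y, Eif2s3y, Kdm5d and Uty were present in 18 of 19 positive cells (94.7%, interval 73.97 to 99.9%) and in 15 of 24 negative cells (62.5%, 40.6 to 81.2%). At least 5 reads of Xist, the RNA that coats the inactive X, were present in 1 and 2 cells, and 0 and 7 cells had neither. The summed Y-linked level had a median of 145 and 45.7 CPM. Of the 4 genes Ddx3y (1.17) and Uty (1.27) were higher and Kdm5d (-1.65) was lower. Without the highest cell Ddx3y was at 0.96 and Uty at 0.77. Cdx4 is X-linked and lies close to Xist, and of 3 tested neighbours in that region, among them Rlim (0.09), none was called. Within cells with at least 5 Y-linked reads, a subset chosen after the data were seen, values moved both ways. At least 2 Hox genes of groups 5 to 13 were read in 14 of 18 positive and 6 of 15 negative cells. The Hox median was 0.65, against 0.89 in all epiblast-like cells. The log2 ratio was larger than in all these cells for Sox2 (2.69) and Wnt5b (2.63) and smaller for Hoxb7 (1.58) and Dusp4 (1.34). The part of the sex-linked difference in the other results was not tested.

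The mesoderm-like cells, which had no part in the calls, were split by the same Cdx4 rule, but at far lower Cdx4 levels. Their positive cells held a median of 3 Cdx4 reads, against 304 in positive epiblast-like cells. Between the 9 Cdx4-positive and 39 negative mesoderm-like cells, 599 of 11422 genes (5.24%) were at least 2-fold higher and 1224 (10.7%) lower. Of 474 genes called higher in epiblast-like cells and measured there, 44.5% had a log2 ratio above 0, against 43.2% of all 10489 genes measured in both. Of 411 called lower, 50.4% lay below 0, against 56.8% of all. Of the 474, 12.2% were at least 2-fold higher and 21.7% at least 2-fold lower, against 4.83% and 9.65% of all, and thus above the background in both directions. The direction of the epiblast-like calls was thus not carried over beyond the background in this contrast. With so few Cdx4 reads in most of the positive cells, it cannot show what cells of like Cdx4 level would do. Hox genes of groups 5 to 13 were read in 2 of the 9 positive (22.2%, interval 2.81 to 60.01%) and 23 of the 39 negative mesoderm-like cells (58.97%, 42.1 to 74.4%). This order was opposite to that in epiblast-like cells, but it rests on 9 positive cells and the intervals overlap.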

How the data were processed

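Single cells of the caudal lateral epiblast were sorted into a plate and sequenced by Smart-seq2. The deposited table holds raw counts by the authors (reads assigned to each of 53379 genes in 91 cells), aligned to GRCm38 (mm10) with HISAT2 and counted with featureCounts per the submitters' processing notes. The sources used here give neither versions nor the annotation or strand setting. Identifiers were matched to GENCODE M21 symbols for 53274 genes. Totals per cell were 709866 to 4439571 counts. No 2 cells had identical counts, no cell was left out, and no doublet caller was run on the sorted cells.

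Counts were scaled to CPM in Python 3.11.15 with numpy 2.4.6, pandas 2.3.3 and scipy 1.17.1, and figures were drawn with matplotlib 3.10.9. Log2 ratios of (mean CPM + 1) were computed for genes with a read in at least 10 epiblast-like cells and called at 2-fold. RPKM used summed GENCODE exon lengths, and coordinates are of GRCm38. Promoters come from RefSeq (GRCm38.p6). The steps were tested on simulated data. Known changes were placed only in well-read genes, so that this is no check of the calls on weakly read genes. The reads carry no molecular identifiers and need not be independent molecules.

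Members and lists were chosen with earlier results of these data known. The genes named are the Cdx family and markers, the 12 largest firm folds each way (mean of at least 10 CPM and reads in at least 50% of cells of the higher group), the 8 largest differences in share of cells each way, up to 4 called members of each list with reads in at least 50% of cells of the higher group, tested Hox genes, and X- and Y-linked lists. One gene of a list is not reported here. Alternatives changed the scaling, pseudocount, gene filter, depth (500000 counts), Cdx4 minimum, epiblast rule and fold measure.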

Additional observations from a re-analysis of the deposited data

How the results depend on the processing

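No paired analysis was possible because the cells are 1 pool with no shared replicate numbers. The counts of genes at least 2-fold higher and lower, 572 and 515, became 174 and 137 with a pseudocount of 10 CPM, 1751 and 1896 over all 20739 genes with a read, 998 and 443 by the difference of mean log2(CPM + 1), and 278 and 262 without the highest cell of the higher group for each gene. With the other scaling, depth, filter, Cdx4 minimum and epiblast rules they were 461 to 610 and 454 to 584. The count of Hox genes called higher, 4, was 1 with a pseudocount of 10 CPM, which lowers folds of weakly read genes, 1 among genes with a mean of at least 10 CPM, a filter that left out Hoxb3, Hoxb8 and Hoxc4, 3 after thinning to 500000 counts and 6 with a minimum of 5 Cdx4 reads. The Hox median stayed above 0 throughout, from 0.31 to 1.03, but it was not always the largest of the lists. With a pseudocount of 10 CPM it was 0.37, below the 0.43 of the Fgf list. Dll1 ran from -1.28, without cell F3, to 3.16, without cell B10, and T from -0.15 to 1.78. Sox2 ran from 1.33 to 2.69, Hoxb7 from 1.24 to 2.16 and Id2 from -1.89 to -0.82 over all alternatives. With at least 5 Cdx4 reads (4 mesoderm-like cells), 37.8% of the higher genes lay above 0 and 55.5% of the lower genes below 0 in mesoderm-like cells, both under the shares of all genes, 39.8% and 60.2%.

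Some alternatives were chosen after seeing the data. Without cell C10 the counts were 560 and 524, without cell A1 594 and 505, and in cells with at least 5 Y-linked reads 834 and 629, of which 453 and 408 were called in all cells too. Depth limits genes such as Hoxb3 and Hoxb8, and with 1 pool no spread between embryos was measured.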
